A study of Danio rerio with 8 samples.

Results

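The serotonin receptor genes of the zebrafish brain were examined in 4 groups of sorted cells. The genes came from 10 receptor names (htr1aa, htr1ab, htr1b, htr1d, htr2aa, htr2cl1, htr4, htr5aa, htr6 and htr7a), matched by gene name without regard to case. Of these names, 7 were found as written and 3 only without their paralogue letter (the a or b that marks the copies left by the fish genome duplication), so that HTR1A, HTR2A and HTR5A stood in for htr1ab, htr2aa and htr5aa. HTR2A and HTR5A each name a pair of genes, which gave 12 genes of the 31388 counted. The copies were told apart by the genes that lie next to them, and the copies beyond the listed names are called htr2ab and htr5ab here.

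Serotonin acts through receptors that, apart from the ion channels of the 5-HT3 class, couple to G proteins. Receptors of the 5-HT1 and 5-HT5 classes couple to Gi/o and lower cyclic AMP, those of the 5-HT2 class couple to Gq and phospholipase C, and those of the 5-HT4, 5-HT6 and 5-HT7 classes couple to Gs and raise cyclic AMP. In the mammalian brain the 5-HT1A and 5-HT1B receptors also sit on serotonergic neurons themselves, where they limit firing and release. The zebrafish brain has serotonergic cells in the raphe and also in the hypothalamus.

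The fish were Tg(her4.1:EGFP) adults of 6 months, in which the her4.1 promoter drives a green fluorescent protein (GFP) in radial glia, which serve as neural stem cells in fish. Brains received interleukin-4 (IL4) peptide or phosphate-buffered saline (PBS), and at 24 hours after injection the dissociated cells were sorted by flow cytometry into a GFP-positive and a GFP-negative fraction. The groups are IL4 GFP-positive, PBS GFP-positive, IL4 GFP-negative and PBS GFP-negative, with 2 libraries each and 8 in all, and every fish carried the reporter. The title of the series names serotonin and its HTR1 receptors as signals that IL4 opposes in stem cells. The series' design text speaks of other injections and another time, and the labels of the libraries were followed, whose names match the table's columns. No label says whether the libraries of a group came from separate fish or from pools, so the p-values measure only the spread between these libraries, which may be technical.

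Each library held between 19242851 and 26582271 counts, so that 1 count was worth 0.0384 to 0.0552 CPM, the unit used here for counts divided by the library's TMM-scaled total. The sort was checked on 17 radial glial marker genes, whose summed level was 41300 to 41400 CPM in IL4 GFP-positive, 53600 to 54700 in PBS GFP-positive, 2860 to 2880 in IL4 GFP-negative and 2840 to 2860 in PBS GFP-negative libraries. The 17 neuronal markers summed to 1240 to 1250, 818 to 860, 6770 to 6840 and 4950 to 5000 CPM in the same order of groups. Replicates differed by more than counting error in every group (chi-square 2.77 to 4.94 for each gene on average). In sorted bulk RNA, fewer cells of a type and less RNA per cell cannot be told apart.

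The Gi/o-coupled genes include 3 with a single exon on GRCz10. They are htr1aa (ENSDARG00000093745, chromosome 8, 31932418 to 31934203, plus strand), htr1ab (ENSDARG00000057098, chromosome 21, 20913340 to 20914777, plus strand) and htr1b (ENSDARG00000053987, chromosome 17, 36640696 to 36642020, plus strand). The gene htr1d (ENSDARG00000054124) has 2 exon blocks on chromosome 17, 28149896 to 28181136, minus strand. The copies htr5aa (ENSDARG00000038869, chromosome 2, 29942144 to 29956310, plus strand) and htr5ab (ENSDARG00000068557, chromosome 7, 40801781 to 40822425, minus strand) have 3 blocks each.

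The Gq-coupled genes are htr2aa (ENSDARG00000057029, chromosome 9, 25387380 to 25444621, minus strand), htr2ab (ENSDARG00000058165, chromosome 6, 9842217 to 9852924, plus strand) and htr2cl1 (ENSDARG00000018228, chromosome 7, 23086740 to 23223452, plus strand). Of the 1552 exon bases of htr2ab, 748 are shared with si:dkey-276l13.5 on the other strand. The strand setting of the counts is not given in the sources used here, so the counts of htr2ab are uncertain. The Gs-coupled genes are htr4 (ENSDARG00000061940, chromosome 14, 24872225 to 24944379, minus strand), htr6 (ENSDARG00000016095, chromosome 23, 39838054 to 39845144, minus strand) and htr7a (ENSDARG00000056949, chromosome 17, 23522091 to 23525692, minus strand).

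Summed over the 12 genes and divided by gene length, receptor transcripts reached 11.7 and 11.9 CPM per kb in IL4 GFP-positive, 11.8 and 9.86 in PBS GFP-positive, 41.5 and 40.0 in IL4 GFP-negative and 34.7 and 33.6 in PBS GFP-negative libraries. Every GFP-negative library lay above every GFP-positive one. The htr1aa and htr1ab pair, the zebrafish copies of the 5-HT1A receptor gene, made up 17.2% and 22.0% of this sum in IL4 GFP-positive and 29.3% and 30.6% in PBS GFP-positive libraries. In GFP-negative cells the pair made up 59.1% and 57.7% after IL4 and 55.8% and 60.9% after PBS. The share was thus lowest in the IL4 GFP-positive group, which overlapped with no other. It is a share of the 12 genes only. Outside them, htr7c stood at 5.99 CPM per kb in IL4 GFP-positive, 7.57 in PBS GFP-positive, 6.25 in IL4 GFP-negative and 5.08 in PBS GFP-negative cells.

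**Figure D1:**
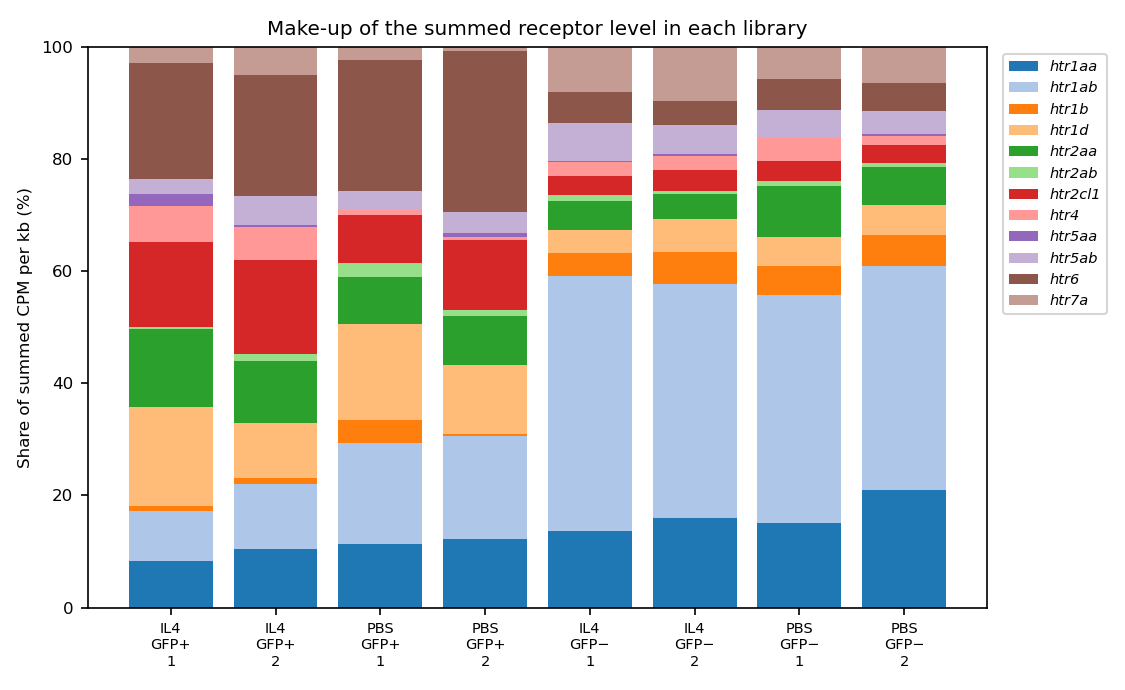
Make-up of the summed level of the 12 genes in each of the 8 libraries. Each bar adds up their CPM per kb as a percentage of the library's sum, without receptor genes outside the 12. The pair htr1aa and htr1ab (blue) fills 55.8% to 60.9% of the GFP-negative bars and 17.2% to 30.6% of the GFP-positive ones, where htr6 (brown) takes 20.8% to 28.7%.

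Ranked by level per length among the 12 genes, GFP-positive cells were led by htr6, at 2.50 ± 0.10 CPM per kb after IL4 and 2.80 ± 0.05 after PBS (SD, n = 2 each). In both treatments its libraries lay above those of the next gene. After IL4 the next were htr2cl1 (1.89 ± 0.17), htr1d (1.61 ± 0.62), htr2aa (1.48 ± 0.21), htr1ab (1.20 ± 0.25) and htr1aa (1.11 ± 0.18), each overlapping its neighbour in the order. Below them stood htr4 (0.722 ± 0.027), htr5ab (0.465 ± 0.22) and htr7a (0.463 ± 0.20), and htr5aa, htr1b and htr2ab were under 0.15 CPM per kb. Outside the 12, the receptor gene htr7c stood above htr6, at 5.99 CPM per kb after IL4 and 7.57 after PBS. The lead of htr6 depends on division by exon length (1440 bases for htr6, 3871 for htr2cl1 and 2633 for htr1d). In CPM, htr2cl1 averaged 7.33 after IL4 and 4.34 after PBS, and htr1d 4.25 and 4.27, above htr6 at 3.60 and 4.03. Of these, only the htr2cl1 libraries after IL4 lay apart from those of htr6.

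After PBS the GFP-positive order behind htr6 was htr1ab (1.97 ± 0.22), htr1d (1.62 ± 0.58), htr1aa (1.27 ± 0.092) and htr2cl1 (1.12 ± 0.15), each overlapping the next. Then came htr2aa (0.925 ± 0.084), apart from its neighbours on both sides. The remaining 6 genes lay between 0.0375 (htr5aa) and 0.380 (htr5ab) CPM per kb and overlapped one another in turn, with htr4 next to last at 0.0803 ± 0.051.

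The GFP-negative cells had another leader. Among the 12 genes htr1ab stood first there, at 17.8 ± 1.5 CPM per kb after IL4 and 13.8 ± 0.46 after PBS. Second was htr1aa, at 6.00 ± 0.53 and 6.14 ± 1.3. After IL4 htr7a came next (3.58 ± 0.38), and htr5ab, htr6, htr1b, htr1d and htr2aa followed between 2.42 and 1.98, each overlapping the next. After PBS htr2aa (2.70 ± 0.59) stood ahead of htr7a (2.03 ± 0.13), and htr1b, htr6, htr1d and htr5ab lay at 1.83, 1.81, 1.80 and 1.59. Under both treatments htr2cl1 (1.48 after IL4, 1.14 after PBS), htr4 (0.970 and 0.976), htr2ab (0.319 and 0.304) and htr5aa (0.135 and 0.0582) came last. Outside the 12, the receptor gene htr7c stood at 6.25 CPM per kb after IL4 and 5.08 after PBS, and htr7b at 4.53 and 4.57. On average both stood above htr7a and htr2aa.

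**Figure D2:**
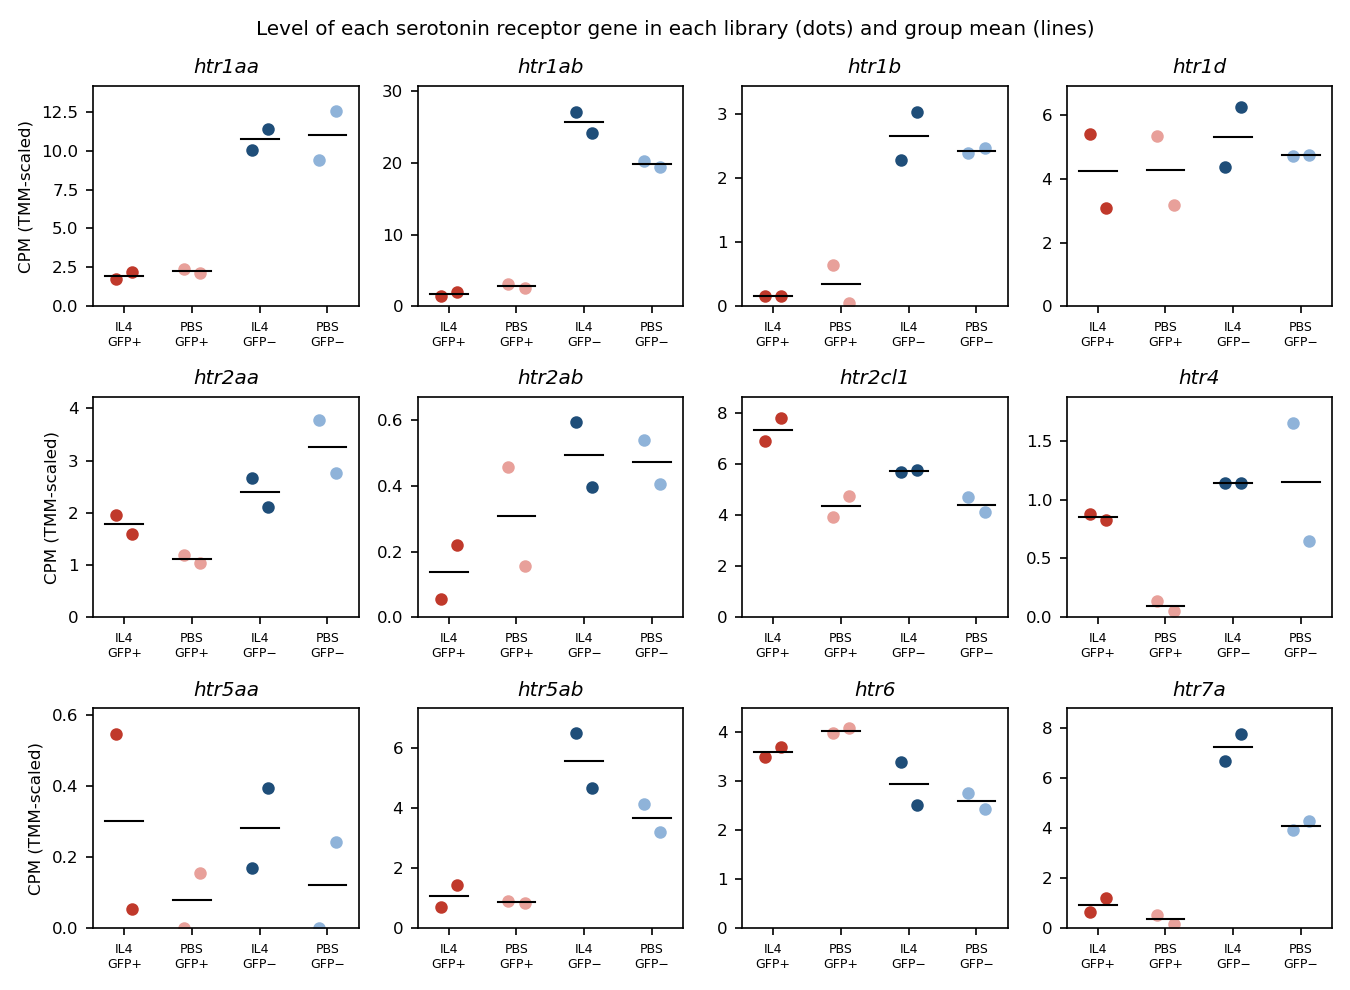
CPM (after TMM scaling, linear axis from 0) of each of the 12 genes in each library, as dots, with a line at each group mean (n = 2 per group). The genes htr1aa, htr1ab, htr1b, htr2aa, htr5ab and htr7a sit higher in all GFP-negative libraries than in any GFP-positive one, and htr4 lies near 0 only in the PBS GFP-positive libraries.

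The comparison of GFP-positive with GFP-negative cells asked in which fraction the receptor transcripts lie. Of the 11 genes that passed the filter on low counts (htr5aa did not), 5 were lower in GFP-positive cells after IL4 and 7 after PBS, and 0 were higher. The 5 are htr1aa, htr1ab, htr1b, htr5ab and htr7a, and after PBS htr2aa and htr4 were lower too. Of all 20508 genes tested, 34.3% were lower and 32.4% higher after IL4, and 39.1% were lower and 32.6% higher after PBS, by edgeR's quasi-likelihood test at a Benjamini-Hochberg adjusted p under 0.05. The receptors' median log2 difference was -1.81 after IL4 and -2.05 after PBS, beside -0.05 and -0.14 over all genes tested.

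Both copies of the 5-HT1A receptor gene were lower in GFP-positive cells. The copy htr1ab had 1.48 and 1.99 CPM in IL4 GFP-positive against 27.1 and 24.1 in IL4 GFP-negative libraries, and 3.06 and 2.61 in PBS GFP-positive against 20.3 and 19.4 in PBS GFP-negative libraries. The copy htr1aa had 1.75 and 2.21 CPM in IL4 GFP-positive against 10.1 and 11.4 in IL4 GFP-negative libraries, and 2.38 and 2.14 in PBS GFP-positive against 9.38 and 12.6 in PBS GFP-negative libraries. For neither gene did the fractions overlap. The log2 difference of htr1ab was -3.88 ± 0.21 after IL4 and -2.80 ± 0.19 after PBS (SE; adjusted p = 1.03e-12 and 4.37e-11, edgeR's quasi-likelihood test). For htr1aa it was -2.43 ± 0.25 and -2.27 ± 0.24 (adjusted p = 4.24e-08 and 5.73e-08, same test).

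The other Gi/o-coupled genes were divided. For htr1b, whose mammalian counterpart is an autoreceptor of serotonergic axon endings, there were 3 and 3 counts in IL4 GFP-positive against 54 and 69 in IL4 GFP-negative libraries, and 14 and 1 in PBS GFP-positive against 62 and 61 in PBS GFP-negative libraries. It was lower in GFP-positive cells by both tests, at -3.97 ± 0.66 after IL4 and -2.73 ± 0.57 after PBS (SE; adjusted p = 2.65e-05 and 0.000252, edgeR's quasi-likelihood test). Its PBS value rests on an uneven pair, and was -5.32 without the first and -1.83 without the second PBS GFP-positive library, and -3.36 with limma voom.

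The copy htr5ab had 0.710 and 1.44 CPM in IL4 GFP-positive against 6.49 and 4.66 in IL4 GFP-negative libraries, and 0.914 and 0.837 in PBS GFP-positive against 4.11 and 3.20 in PBS GFP-negative libraries. Its fractions did not overlap, and it was lower in GFP-positive cells, at -2.37 ± 0.37 and -2.05 ± 0.38 on the log2 scale (adjusted p = 1.04e-05 and 6.87e-05, edgeR's quasi-likelihood test). Without the second IL4 GFP-positive library the value after IL4 was -2.96. The copy htr5aa was near the floor of detection, with 10 and 1 counts in IL4 GFP-positive, 0 and 3 in PBS GFP-positive, 4 and 9 in IL4 GFP-negative and 0 and 6 in PBS GFP-negative libraries. It was not tested.

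In contrast to these, htr1d gave overlapping fractions, with 5.41 and 3.09 CPM in IL4 GFP-positive against 4.37 and 6.24 in IL4 GFP-negative libraries, and 5.35 and 3.19 in PBS GFP-positive against 4.73 and 4.74 in PBS GFP-negative libraries. Its first library was the high one in both GFP-positive groups. No difference passed, at -0.32 ± 0.31 after IL4 and -0.14 ± 0.30 after PBS (adjusted p = 0.373 and 0.688, edgeR's quasi-likelihood test).

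Among the Gq-coupled genes, htr2aa had 1.97 and 1.60 CPM in IL4 GFP-positive against 2.67 and 2.11 in IL4 GFP-negative libraries, and 1.19 and 1.05 in PBS GFP-positive against 3.77 and 2.76 in PBS GFP-negative libraries. The fractions stood apart under both treatments, but the difference passed only after PBS (-1.54 ± 0.36, adjusted p = 0.00088, edgeR's quasi-likelihood test; after IL4 -0.42 ± 0.36, adjusted p = 0.309). The difference between these values is the interaction given further on for htr2aa, which did not pass. The gene htr2cl1, of the 5-HT2C kind, had 6.88 and 7.79 CPM in IL4 GFP-positive against 5.68 and 5.76 in IL4 GFP-negative libraries, and 3.93 and 4.76 in PBS GFP-positive against 4.69 and 4.13 in PBS GFP-negative libraries. Neither of its differences passed (0.36 ± 0.23 and -0.03 ± 0.24, adjusted p = 0.170 and 0.926, same test). The low gene htr2ab had 1 and 4 counts in IL4 GFP-positive against 14 and 9 in IL4 GFP-negative libraries, and 10 and 3 in PBS GFP-positive against 14 and 10 in PBS GFP-negative libraries, and passed under neither treatment.

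The Gs-coupled genes also differed among themselves. In IL4 GFP-positive libraries htr7a had 0.655 and 1.22 CPM, against 6.70 and 7.78 in IL4 GFP-negative libraries, and in PBS GFP-positive libraries it had 0.549 and 0.157, against 3.92 and 4.29 in PBS GFP-negative libraries. It was lower in GFP-positive cells, at -2.95 ± 0.37 and -3.48 ± 0.44 on the log2 scale (adjusted p = 7.12e-07 and 5.54e-07, edgeR's quasi-likelihood test), and the PBS value was -4.59 without the first and -2.81 without the second PBS GFP-positive library.

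For htr4 the fractions were close after IL4, at 0.874 and 0.828 CPM in GFP-positive against 1.15 and 1.14 in GFP-negative libraries, and far apart after PBS, at 0.137 and 0.0523 in GFP-positive against 1.65 and 0.648 in GFP-negative libraries. It was lower in GFP-positive cells after PBS (-3.50 ± 0.75, adjusted p = 0.000362, edgeR's quasi-likelihood test) and did not pass after IL4 (-0.42 ± 0.55, adjusted p = 0.514). The PBS value rests on 4 counts in GFP-positive cells against 59 in GFP-negative cells, and was -2.67 without the first PBS GFP-negative and -4.25 without the first PBS GFP-positive library.

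The gene htr6 had 3.50 and 3.70 CPM in IL4 GFP-positive against 3.39 and 2.51 in IL4 GFP-negative libraries, and 3.98 and 4.08 in PBS GFP-positive against 2.77 and 2.43 in PBS GFP-negative libraries. Under both treatments every GFP-positive library lay above the GFP-negative ones. The differences did not pass, at 0.29 ± 0.29 after IL4 and 0.63 ± 0.29 after PBS (adjusted p = 0.401 and 0.0563, edgeR's quasi-likelihood test). The PBS difference did pass with RLE factors (0.67), with limma voom (0.63) and without either IL4 GFP-positive library (0.71), 4 of the 14 alternatives. With library totals it was 0.14 (adjusted p = 0.665).

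**Figure D3:**
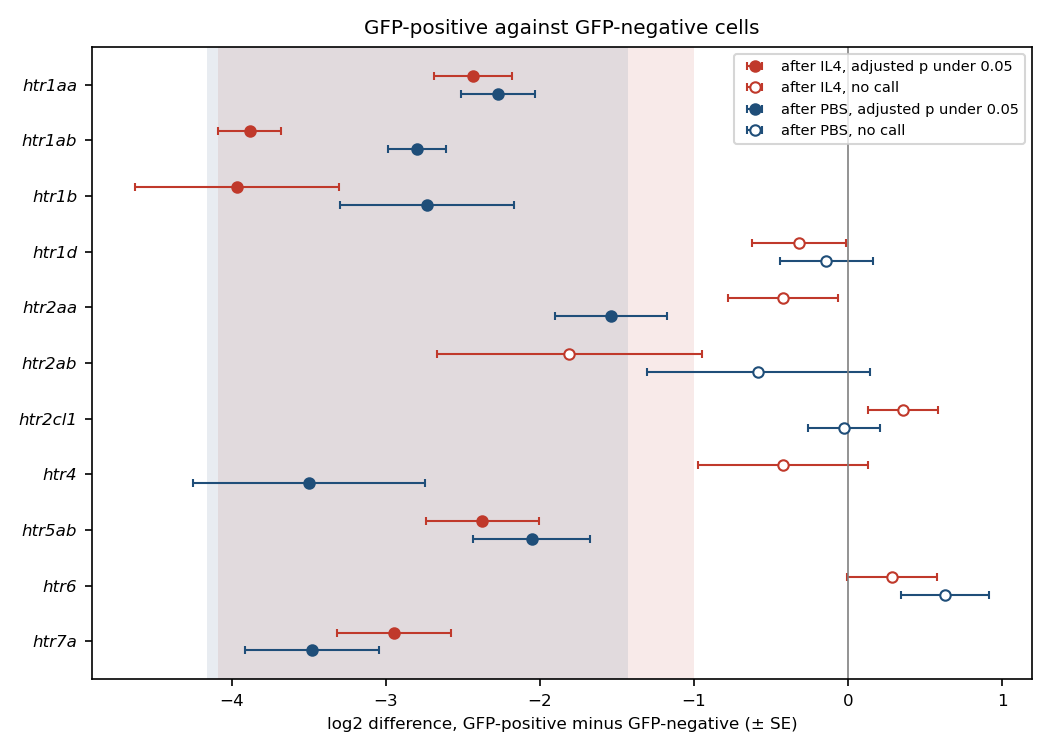
Log2 difference between GFP-positive and GFP-negative cells (horizontal axis, bars ± SE) for the 11 tested genes, after IL4 (red) and after PBS (blue), filled where the adjusted p was under 0.05. Shaded bands span the values of the 17 neuronal marker genes (red -4.09 to -0.9975, blue -4.16 to -1.43); htr1d, htr2cl1 and htr6 lie to the right of both.

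The neuronal markers moved with this comparison. All 17 were lower in GFP-positive cells, at -4.09 to -0.9975 after IL4 (median -2.47) and -4.16 to -1.43 after PBS (median -2.53). After IL4, 6 receptor genes lay within the neuronal range and 5 above it (htr1d, htr2aa, htr2cl1, htr4 and htr6). After PBS, 7 lay within it and 4 above (htr1d, htr2ab, htr2cl1 and htr6). The share of all genes tested that lay within these ranges was not counted. Oligodendrocyte markers (8 genes) were lower as well, with sums of 1580 to 1590 CPM in IL4 GFP-positive against 19200 to 19400 in IL4 GFP-negative libraries and 1870 to 1950 in PBS GFP-positive against 14600 to 14900 in PBS GFP-negative libraries. Their median was -2.59 after IL4 and -2.44 after PBS, within the neuronal range. Medians of microglia and macrophage (-3.22 and -3.54) and endothelial markers (-2.95 and -3.69) also lay within it. Those of erythrocyte markers (-4.67 and -4.51) lay below it and those of radial glial markers (4.955 and 4.857) above. The part of cell make-up in the receptors' differences was not tested.

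Scaling bears on this comparison more than on the others. With library totals in place of TMM factors, the median of all genes shifted by -0.44 after IL4 and by -0.49 after PBS. Over all genes, 6642 were higher and 7024 lower after IL4 with TMM, against 4332 and 9833 with library totals, and after PBS 6691 were higher and 8022 lower, against 4231 and 10753. Under library totals htr1d (-0.75), htr2aa (-0.86) and htr2ab (-2.24) also passed as lower after IL4, htr2cl1 (-0.08) and htr6 (-0.15) turned negative there without passing, and htr2ab passed without the second IL4 GFP-positive library too (-3.05).

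The main question of the series concerns IL4 in GFP-positive cells. Calls were made for 3 genes there: htr4 and htr2cl1 were higher after IL4, and htr1ab was lower. These are 2 higher and 1 lower of 11 genes, beside 13.9% higher and 14.8% lower of all genes tested. At an unadjusted p under 0.05 there were 4. The receptors' median log2 change was -0.01, beside 0.01 over all genes. Over all genes 2847 were higher and 3042 lower, and with library totals 3476 and 2410.

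The largest change was that of htr4, a Gs-coupled receptor gene. It had 16 and 15 counts (0.874 and 0.828 CPM) in IL4 GFP-positive libraries, against 3 and 1 counts (0.137 and 0.0523 CPM) in PBS GFP-positive libraries. Both IL4 libraries were close together and the groups did not overlap. The log2 change was 3.06 ± 0.80 (adjusted p = 0.00631, edgeR's quasi-likelihood test), and the ratio of scaled counts was 8.73, with a 95% counting interval of 3.08 to 34. The change ran from 2.53 to 3.84 over the alternatives, with the highest value without the first PBS GFP-positive library, and passed in all of them but DESeq2, which gave no adjusted p for so low a gene.

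The Gq-coupled htr2cl1 had 6.88 and 7.79 CPM in IL4 GFP-positive libraries, against 3.93 and 4.76 CPM in PBS GFP-positive libraries, with no overlap. It was higher by 0.76 ± 0.23 on the log2 scale (adjusted p = 0.0189, edgeR's quasi-likelihood test). The call was lost without the first PBS GFP-positive library (0.57) and without the second IL4 GFP-positive library (0.61). The related htr2aa had 1.97 and 1.60 CPM in IL4 GFP-positive against 1.19 and 1.05 in PBS GFP-positive libraries, also without overlap, and did not pass (0.67 ± 0.39, adjusted p = 0.219, same test).

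The 5-HT1A copy htr1ab had 1.48 and 1.99 CPM (27 and 36 counts) in IL4 GFP-positive libraries, against 3.06 and 2.61 CPM (67 and 50 counts) in PBS GFP-positive libraries. The groups did not overlap. It was lower after IL4, at -0.72 ± 0.25 on the log2 scale (adjusted p = 0.0374, edgeR's quasi-likelihood test). The call was lost with library totals (-0.64, adjusted p = 0.0585), with limma voom (-0.72, adjusted p = 0.149), without the first PBS GFP-positive library (-0.65), without the first IL4 GFP-positive library (-0.57) and without either IL4 GFP-negative library (-0.72 each). The other copy, htr1aa, had 1.75 and 2.21 CPM in IL4 GFP-positive against 2.38 and 2.14 in PBS GFP-positive libraries. Its groups overlapped and it did not pass (-0.20 ± 0.29, adjusted p = 0.665, same test).

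The Gs-coupled htr7a had 0.655 and 1.22 CPM (12 and 22 counts) in IL4 GFP-positive libraries, against 0.549 and 0.157 CPM (12 and 3 counts) in PBS GFP-positive libraries. The groups did not overlap, but the change narrowly failed to pass (1.35 ± 0.53, adjusted p = 0.0651, edgeR's quasi-likelihood test). It passed with library totals (1.42) and with no filter on low counts (1.35), without the first PBS GFP-positive library (2.48) and without the first IL4 GFP-positive library (1.67), 4 of the 14 alternatives. The change was 0.70 (adjusted p = 0.369) without the second PBS and 0.78 (adjusted p = 0.435) without the second IL4 GFP-positive library.

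The remaining genes did not pass in GFP-positive cells. For htr6 the log2 change was -0.16 ± 0.29, with IL4 GFP-positive libraries just under those after PBS. It was -0.01 ± 0.31 for htr1d and 0.29 ± 0.44 for htr5ab. For htr1b, at 3 and 3 counts in IL4 GFP-positive against 14 and 1 in PBS GFP-positive libraries, it was -1.10 ± 0.86. The first PBS library alone set its direction: without it the value was 1.51, and without the second it was -1.98 and passed (adjusted p = 0.0488). For htr2ab the change was -1.16 ± 0.93 on 5 counts against 13.

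**Figure D4:**
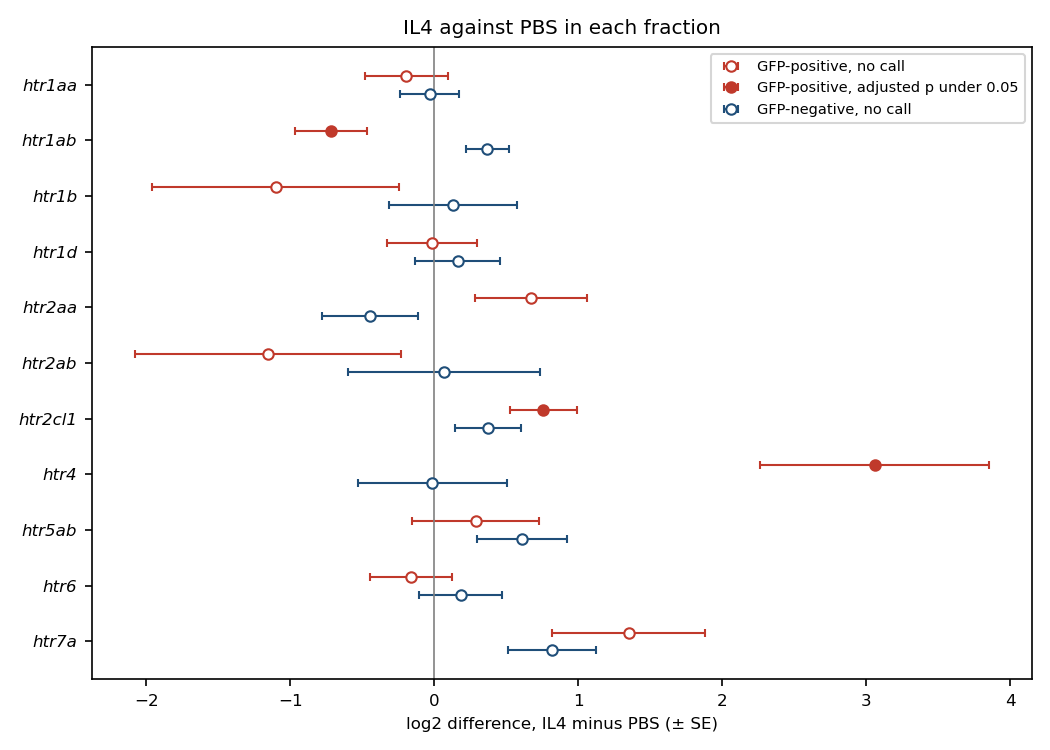
Log2 change from IL4 over PBS (horizontal axis, bars ± SE) for the 11 tested genes in GFP-positive (red) and GFP-negative cells (blue), filled where the adjusted p was under 0.05. In GFP-positive cells htr4 (3.06), htr2cl1 (0.76) and htr1ab (-0.72) are filled, and no gene is in GFP-negative cells.

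Markers of other cells also moved in GFP-positive libraries, where 13.9% of all genes tested were higher after IL4 and 14.8% lower. Of the 17 neuronal markers, 9 were higher after IL4 and 0 lower, with a median log2 change of 0.59 and a range of -0.18 to 2.04. Against this range htr4 lay above, and htr1aa, htr1ab, htr1b and htr2ab below. Of those below, only htr1ab had a call (-0.72 ± 0.25). The others had none: htr1aa (-0.20 ± 0.29), htr1b (-1.10 ± 0.86) and htr2ab (-1.16 ± 0.93). Whether a gene lay outside the range was not tested, and the share of all genes outside it was not counted. Of 7 microglia and macrophage markers, 6 were lower, with sums of 321 to 326 CPM in IL4 GFP-positive against 803 to 805 in PBS GFP-positive libraries, and of 17 radial glial markers 14 were lower. The serotonergic markers summed to 24.4 to 26.1 CPM in IL4 GFP-positive and 22.7 to 26.0 in PBS GFP-positive libraries. The defining gene fev was near the floor and not tested, at 0 in both IL4 GFP-positive libraries and at 0 and 0.105 CPM in PBS GFP-positive libraries. Of the 10 serotonergic markers tested, 2 were higher (gata3 and TPH1 on chromosome 7) and 1 lower (tph2). That TPH1 gene was near the floor, at 0.0457 and 0.105 CPM in PBS GFP-positive against 0.273 and 0.607 in IL4 GFP-positive libraries. The part of these cell types in the receptors' changes was not tested.

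Set against the summed neuronal markers, htr1ab stood at 1.19 and 1.59 CPM per 1000 marker CPM in IL4 GFP-positive libraries and at 3.56 and 3.20 in PBS GFP-positive libraries. In GFP-negative cells it stood at 3.97 and 3.56 after IL4 and 4.06 and 3.91 after PBS. The IL4 GFP-positive libraries were thus below all others, and the remaining 3 groups lay near one another. For htr4 the same ratio was 0.702 and 0.661 in IL4 GFP-positive, 0.159 and 0.0639 in PBS GFP-positive, 0.167 and 0.169 in IL4 GFP-negative and 0.330 and 0.131 in PBS GFP-negative libraries, highest in the IL4 GFP-positive group. For htr1aa it was 1.40 and 1.76 in IL4 GFP-positive, 2.76 and 2.62 in PBS GFP-positive, 1.47 and 1.68 in IL4 GFP-negative and 1.87 and 2.54 in PBS GFP-negative libraries, lower after IL4 in both fractions. In CPM, htr1aa did not pass in either fraction (log2 change -0.20 in GFP-positive and -0.03 in GFP-negative cells). The marker sum was higher after IL4 in both. These ratios are given without a test, and they move with the marker sum as well as with the receptor. Of the 17 markers in GFP-positive cells, 9 were higher after IL4 and 8 gave no call. The marker elavl3 averaged 461 CPM in IL4 and 187 in PBS GFP-positive cells, while SNAP25 on chromosome 20 averaged 199 and 197.

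**Figure D5:**
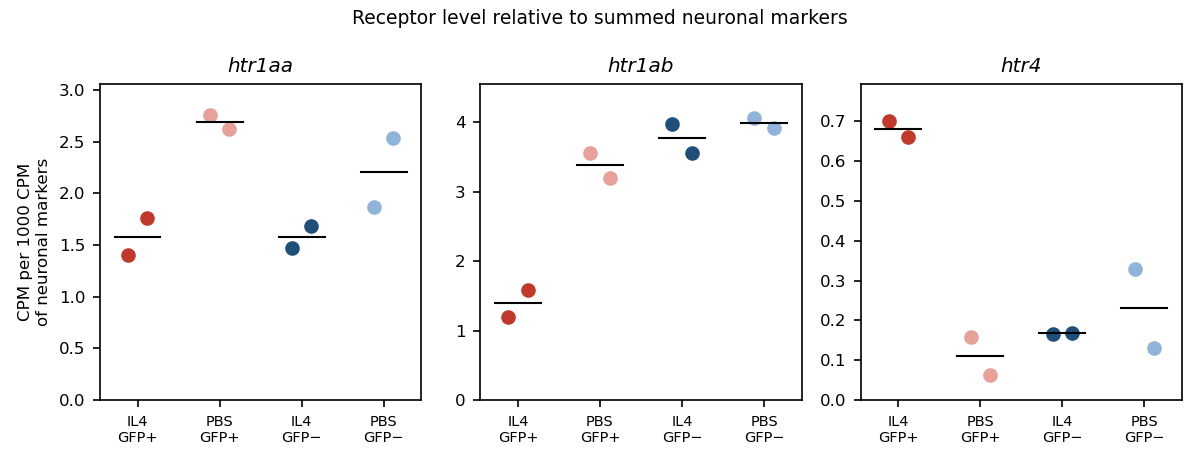
CPM of htr1aa, htr1ab and htr4 per 1000 CPM of the 17 summed neuronal markers (linear axes from 0), one dot per library and a line at each group mean. The IL4 GFP-positive libraries are the lowest for htr1ab (1.19 and 1.59) and the highest for htr4 (0.702 and 0.661). The marker sum itself was higher after IL4 in both fractions.

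Between the copies of the 5-HT1A gene, the balance differed by fraction. Per kb, htr1ab exceeded htr1aa by a factor of 1.05 and 1.12 in IL4 GFP-positive, 1.60 and 1.52 in PBS GFP-positive, 3.35 and 2.63 in IL4 GFP-negative and 2.69 and 1.92 in PBS GFP-negative libraries. The copies were nearly level in IL4 GFP-positive cells, and the ratio there lay below that of every other library. It rests there on 27 and 36 counts of htr1ab and 32 and 40 of htr1aa. These ratios were not tested.

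In GFP-negative cells IL4 gave no call. By edgeR's quasi-likelihood test 0 of 11 genes passed, beside 9.04% higher and 15.4% lower of all genes tested, and 2 had an unadjusted p under 0.05. DESeq2 also gave 0, and limma voom gave 2 (htr1ab and htr7a, both higher). The receptors' median log2 change was 0.16, beside -0.02 over all genes.

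The gene nearest to passing in GFP-negative cells was htr7a, with 6.70 and 7.78 CPM in IL4 against 3.92 and 4.29 in PBS GFP-negative libraries. The groups did not overlap (log2 0.82 ± 0.30, adjusted p = 0.0569, edgeR's quasi-likelihood test). It passed with library totals (0.84), no filter (0.82) and voom (0.81), and without any 1 of the GFP-positive libraries (0.84 each), 7 of the 14 alternatives, which ran from 0.70 to 0.92 with adjusted p-values up to 0.334.

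Next was htr1ab, with 27.1 and 24.1 CPM in IL4 against 20.3 and 19.4 in PBS GFP-negative libraries, again without overlap (0.37 ± 0.15, adjusted p = 0.0864, edgeR's quasi-likelihood test). It passed with voom (0.37, adjusted p = 0.0181) and without either PBS GFP-positive library (0.39), and in none of the other alternatives, with adjusted p-values up to 0.456. For htr5ab the values were 6.49 and 4.66 CPM in IL4 against 4.11 and 3.20 in PBS GFP-negative libraries (0.61 ± 0.31, adjusted p = 0.179), and for htr2cl1 the change was 0.37 ± 0.23 and for htr2aa -0.45 ± 0.33.

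The other 6 lay between -0.03 and 0.18, with IL4 and PBS libraries overlapping for each. For htr4 the first PBS GFP-negative library was high, with 43 counts against 16 in the second, and IL4 libraries had 27 and 26. In these cells 10 of 17 neuronal markers were higher after IL4 and 0 lower, beside 9.04% and 15.4% of all genes tested. The markers had a median of 0.35 and a range of -0.14 to 1.23. Within that range lay 10 receptor genes, with htr2aa below it. The median of all genes tested (-0.02) lay within it too, and the share of all genes within it was not counted. Microglia and macrophage markers summed to 2160 to 2210 CPM in IL4 GFP-negative against 7120 to 7390 in PBS GFP-negative libraries, and their part in the levels was not tested.

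Whether IL4 acted differently in the fractions was tested as an interaction, GFP-positive change minus GFP-negative change. It passed for 1 gene above 0 and 1 below, beside 11.5% higher and 7.26% lower of all genes tested. For htr1ab it was -1.09 ± 0.29 (adjusted p = 0.0126, edgeR's quasi-likelihood test), with a change of -0.72 in GFP-positive and 0.37 in GFP-negative cells. That call was lost without the first IL4 GFP-negative library (-0.997, adjusted p = 0.0633) and without the first IL4 GFP-positive library (-0.96, adjusted p = 0.0542).

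For htr4 the interaction was 3.07 ± 0.97 (adjusted p = 0.0312, same test), with changes of 3.06 in GFP-positive and -0.01 in GFP-negative cells. It did not pass with voom (2.83, adjusted p = 0.0525) or without the first PBS GFP-negative library (2.24), the second PBS GFP-positive library (2.52), either IL4 GFP-negative library (3.07 each) or either IL4 GFP-positive library (2.96 without the first, 3.04 without the second). Without the first PBS GFP-positive library it passed at 3.83. DESeq2 gave no adjusted p for it, and it passed in 6 of the 14 alternatives. For htr2aa it was 1.12 ± 0.51 and did not pass (adjusted p = 0.144, edgeR's quasi-likelihood test). The other 8 genes lay between -1.23 and 0.53. Over all genes 2355 interactions were above 0 and 1488 below, and with RLE factors 1941 and 1850, with DESeq2 1723 and 1648.

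The table holds 7 further serotonin receptor genes (htr1fb, htr2cl2, htr3a, htr3b, htr7b, htr7c and a gene listed as HTR7 on chromosome 20), of which 4 were tested. In GFP-positive against GFP-negative cells 0 were higher and 1 lower after IL4, and 1 was higher and 3 lower after PBS, beside 32.4% higher and 34.3% lower of all genes after IL4 and 32.6% and 39.1% after PBS. For IL4 over PBS 1 was higher in GFP-positive cells (0 with DESeq2 and 0 with voom; 13.9% of all genes) and 0 of 4 passed in GFP-negative cells by edgeR's quasi-likelihood test, where DESeq2 and voom also gave 0 and 0 had an unadjusted p under 0.05. The most abundant was htr7c (ENSDARG00000095272), a Gs-coupled receptor gene, with 5.99 CPM per kb in IL4 GFP-positive, 7.57 in PBS GFP-positive, 6.25 in IL4 GFP-negative and 5.08 in PBS GFP-negative cells, more than any of the 12 genes in GFP-positive cells. It was higher in GFP-positive cells after PBS (0.58 ± 0.22, adjusted p = 0.0218, edgeR's quasi-likelihood test), with 265 and 192 counts in PBS GFP-positive against 152 and 223 in PBS GFP-negative libraries. This call was lost with library totals (0.09), without the first PBS GFP-negative library (0.30) and without the first PBS GFP-positive library (0.51), and the value was 0.92 without the second PBS GFP-negative library.

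The gene htr7b (ENSDARG00000027587) had 0 and 2 counts in IL4 GFP-positive against 115 and 118 in IL4 GFP-negative libraries, and 10 and 1 in PBS GFP-positive against 164 and 95 in PBS GFP-negative libraries. It was lower in GFP-positive cells, by a ratio of 91.6 after IL4 (95% counting interval 25.1 to 760) and 19.0 after PBS (10.5 to 38.6). The log2 difference after PBS was -4.23 ± 0.53, and -6.38 without the first PBS GFP-positive library. After IL4 it was -6.38 ± 0.71, and without the second IL4 GFP-positive library, which held both counts, the fitted value was -9.80, against a group at 0, and is no bound. HTR7 on chromosome 20 had 13 and 0 counts in IL4 GFP-positive and 0 and 0 in PBS GFP-positive libraries, and 13 and 28 in IL4 GFP-negative and 8 and 18 in PBS GFP-negative libraries. Its IL4 call in GFP-positive cells (adjusted p = 0.04, edgeR's quasi-likelihood test; at least 4.88-fold higher by a floor of 3 counts over the group) rests on 1 library, without which both groups were at 0.

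Upstream of the receptors, genes of serotonin synthesis, storage, uptake and breakdown gave 1 higher and 4 lower of 21 tested in GFP-positive cells and 0 higher and 7 lower in GFP-negative cells after IL4. Over all genes tested, 13.9% were higher and 14.8% lower in the GFP-positive fraction, and 9.04% were higher and 15.4% lower in the GFP-negative one. The enzyme gene tph2, for a tryptophan hydroxylase, averaged 2.09 ± 0.14 CPM in IL4 and 6.29 ± 2.0 in PBS GFP-positive cells, and 13.6 ± 3.1 in IL4 and 89.6 ± 0.81 in PBS GFP-negative cells (SD, n = 2). It was lower after IL4 in both fractions, at -1.60 ± 0.25 and -2.72 ± 0.16 (log2, SE; adjusted p = 6.22e-05 and 4.59e-11, edgeR's quasi-likelihood test). Among the genes of the list that passed, the largest change was that of aanat2, which acetylates serotonin on the way to melatonin in the pineal gland, at 0.632 CPM in IL4 against 7.80 in PBS GFP-positive cells and 1.72 in IL4 against 112 in PBS GFP-negative cells (-3.62 ± 0.23 and -6.02 ± 0.15; adjusted p = 6.95e-10 and 2.74e-16). The next enzyme gene on that path, asmt, averaged 2.69 ± 0.91 CPM in IL4 and 11.7 ± 1.3 in PBS GFP-positive cells, and 16.3 ± 0.39 in IL4 and 170.0 ± 3.1 in PBS GFP-negative cells. It was lower in both fractions (-2.12 ± 0.17 and -3.38 ± 0.11, adjusted p = 1.54e-08 and 7.93e-15, edgeR's quasi-likelihood test). Of the 10 serotonergic markers tested, 3 were lower in GFP-negative cells after IL4 and 0 were higher. Among the 3 were tph2 and TPH1 on chromosome 25 (-1.29). The serotonergic markers, tph2 included, summed to 110 to 121 CPM in IL4 and 196 to 205 in PBS GFP-negative libraries. Among these markers, SLC6A4 (-0.23), slc6a4b (0.12) and slc18a2 (0.41) gave no call there. SLC6A4 was low, at 0.453 CPM in IL4 and 0.534 in PBS GFP-negative cells. The part of pineal or serotonergic cell numbers in the changes of tph2, aanat2 and asmt was not tested.

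Downstream, genes of Gi/o coupling gave 2 higher and 3 lower of 18 in GFP-positive cells and 3 higher and 4 lower in GFP-negative cells, beside the same shares of all genes (13.9% and 14.8%, and 9.04% and 15.4%). Among those that passed, the largest change was that of gnaz, a Gi/o-class alpha subunit, at 12.4 and 13.4 CPM in IL4 against 5.12 and 6.54 in PBS GFP-positive libraries (1.15 ± 0.17, adjusted p = 2.64e-05, edgeR's quasi-likelihood test). It was also higher in GFP-negative cells (0.46 ± 0.13, adjusted p = 0.015), a call lost without the second PBS (0.34) or the second IL4 GFP-negative library (0.38). The gene rgs4, for a regulator that speeds the shut-off of Gi/o and Gq subunits, had 6.66 and 6.07 CPM in IL4 against 12.3 and 11.6 in PBS GFP-positive libraries, and was lower there (-0.91 ± 0.17, adjusted p = 0.000356, same test).

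Genes of Gs and cyclic AMP coupling gave 10 higher and 2 lower of 28 in GFP-positive cells and 6 higher and 2 lower in GFP-negative cells, with median log2 changes of 0.28 and 0.02. Of all genes 13.9% and 14.8% passed in those directions in the GFP-positive fraction, and 9.04% and 15.4% in the GFP-negative one. The 12 calls in GFP-positive cells became 6 without the first and 5 without the second IL4 GFP-positive library. The largest change that passed, of the protein kinase A catalytic subunit gene prkacba, rests on 1 count in IL4 against 13 in PBS GFP-positive libraries (11.5 times lower, 95% counting interval 1.73 to 491). Its call (adjusted p = 0.0428, edgeR's quasi-likelihood test) was lost with DESeq2, with voom and without 7 of the 8 libraries in turn. The adenylyl cyclase gene listed as ADCY1 on chromosome 20 was higher in GFP-positive cells, with 1.97 and 2.87 CPM in IL4 against 0.640 and 1.36 in PBS libraries (1.30 ± 0.34, adjusted p = 0.0067), a call lost without the first PBS (0.78) or the second IL4 GFP-positive library (0.94).

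Genes of Gq and phospholipase C coupling gave 6 higher and 0 lower of 16 in GFP-positive cells and 3 higher and 4 lower in GFP-negative cells, with medians of 0.36 and -0.24, against all-gene shares of 13.9% (higher) and 14.8% (lower), and of 9.04% and 15.4% for the GFP-negative fraction. Without the second PBS GFP-positive library 3 passed in GFP-positive cells. The gene listed as ITPR1 on chromosome 6, for a calcium channel opened by inositol trisphosphate, had 6.50 and 5.36 CPM in IL4 against 2.42 and 2.41 in PBS GFP-positive libraries (1.29 ± 0.26, adjusted p = 0.000654, edgeR's quasi-likelihood test). In GFP-negative cells it was lower (-0.74 ± 0.23, adjusted p = 0.0238), a call lost with DESeq2 and without any 1 GFP-negative library. The phospholipase gene plcb3 was lower in GFP-negative cells, with 8.52 and 10.2 CPM in IL4 against 16.2 and 17.8 in PBS libraries (-0.86 ± 0.18, adjusted p = 0.00112). Medians over all genes were 0.01 in GFP-positive and -0.02 in GFP-negative cells.

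Genes with the pattern most like that of 3 receptors were sought among 15286 tested genes. These 3 had the highest mean CPM of the 12 genes, and htr7c, outside the 12, was not considered. Likeness was the root mean square distance of centred log2 CPM over the 8 libraries, which fall into 2 fractions. Nearest to htr1ab were nefma, a neurofilament gene (0.11), drd4a, a dopamine receptor gene (0.13), and timd4 (0.14). Nearest to htr1aa were neff2 (0.10), tmsb1 (0.11) and RIMBP2 (0.14), which encodes a presynaptic protein. For htr2cl1, for which neither difference between the fractions passed, they were KCTD3 (0.06), NSD2 (0.06) and TCF12 (0.09). The cell types that hold these genes were not tested, and a pattern shared over 2 fractions does not place a receptor in any cell type.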

How the data were processed

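RNA was counted in 8 libraries of sorted brain cells. The authors deposited 1 table of whole-number read counts per gene, with no normalization, and each gene's exon length. Per the submitters' processing notes, featureCounts and the build GRCz10 (danRer10) were used. The aligner, the strand setting and how multi-mapping reads were treated are not given in the sources used here. Per the labels' protocols, cDNA was primed on poly-A tails, amplified and sequenced as single reads. All 31388 genes' lengths equal their merged exon bases.

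Receptors were matched by name, and same-named copies by shared neighbouring genes in RefSeq's GRCz12tu annotation, from which no coordinate was used: the copy called htr2aa shared 7 neighbours with htr2aa and 0 with htr2ab, that called htr2ab 0 and 6, that called htr5aa 10 with htr5aa and 3 with htr5ab, and that called htr5ab 3 and 9.

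The quasi-likelihood test of edgeR 4.0.16 (R 4.3.3) was applied to the counts, with TMM factors, filterByExpr (minimum count 10; 20508 genes kept, 10880 removed), glmQLFit with robust = TRUE on 4 group means, fitted to the 8 libraries together (residual degrees of freedom 4, common dispersion 0.00816), and two-sided quasi-likelihood F tests. P-values were adjusted by the Benjamini-Hochberg method across the whole tested table. A call means an adjusted p under 0.05. SE is the log2 change divided by the square root of F. A total of 5 comparisons were made, and the scripts were tested on simulated data. Groups of 2 libraries cannot reach a low p by permutation. Such groups often stand apart where nothing differs, so a lack of overlap is a description and no test. The share of all genes without overlap is not given here. Counting intervals (95%) and the floor of 3 counts cover counting error only: the cDNA was amplified, and the labels mention no molecular identifiers.

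The receptors and lists were chosen with earlier results of these data known. All matched receptors are named. Of the other receptors the 3 with the highest mean CPM are named, and of each pathway list at most 3 genes that passed in an IL4 comparison with a mean CPM of at least 1, by size of change. The copies htr2ab and htr5ab, which the list of other receptors also held, are counted among the 12. Likeness was sought among genes with a mean count of at least 50, for the 3 of the 12 receptors with the highest mean CPM. No label pairs the libraries by number, and same-numbered libraries were not treated as pairs: their deviations from the group means correlated by -0.011 to 0.0066. Alternatives were RLE factors, library totals, no filter, DESeq2 1.42.0, limma 3.58.1 voom, a replicate block and leaving out each of the 8 libraries. Lists and genes outside the receptors were put through the same alternatives, a choice made after seeing the data.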

Additional observations from a re-analysis of the deposited data

Results flagged for a closer look

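For htr1ab and htr4 the change from IL4 over PBS differed between GFP-positive and GFP-negative cells by the interaction test of edgeR's quasi-likelihood fit. The difference was -1.09 ± 0.29 (log2, SE, adjusted p = 0.0126) for htr1ab, which was lower after IL4 in GFP-positive cells and did not pass in GFP-negative cells. It was 3.07 ± 0.97 (adjusted p = 0.0312) for htr4, which was higher after IL4 in GFP-positive cells and did not pass in GFP-negative cells. The htr1ab difference rests on 63 and 117 counts in IL4 and PBS GFP-positive cells and 1188 and 1006 in IL4 and PBS GFP-negative cells, and that of htr4 on 31 and 4, and 53 and 59 counts. Of the 14 alternatives, the htr1ab difference passed in 12 and the htr4 difference in 6.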

How the results depend on the processing

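Under the 14 alternatives, the 5 receptors that were lower in GFP-positive cells after IL4 and the 7 after PBS kept their calls. The number passing after IL4 was 8 with library totals. For IL4 in GFP-negative cells the number was 1 with library totals, 1 without the filter and 2 with voom, against 0 in the reported fit, and 0 to 2 without 1 library. The interaction gave 1 receptor with DESeq2 and 1 with voom, against 2, and 0 to 2 without 1 library. Over all genes, leaving out 1 library gave 3195 to 5629 calls for IL4 in GFP-negative cells and 2509 to 3866 for the interaction.

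Some values that did not pass changed sign. In GFP-positive cells htr1d was 0.062 with library totals. In GFP-negative cells htr4 was 0.0022 with RLE factors, 0.0059 with library totals, 0.0018 with DESeq2, 0.13 with voom and 0.072 with the replicate block, which changed no call of a receptor. After PBS the fraction difference of htr2cl1 was 0.0115 with RLE factors and 0.0070 with DESeq2. After IL4 those of htr2cl1 and htr6 were -0.079 and -0.15 with library totals.

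Without 1 library, IL4 changes in GFP-positive cells ran from -1.98 to 1.51 for htr1b, -0.53 to 0.36 for htr1d and -0.36 to 0.65 for htr5ab. In GFP-negative cells they ran from -0.23 to 0.19 for htr1aa, -0.084 to 0.32 for htr1b, -0.12 to 0.40 for htr1d, -0.25 to 0.33 for htr2ab, -0.53 to 0.81 for htr4 and -0.054 to 0.38 for htr6. Interactions ran from -0.42 to 0.034 for htr1aa, -2.13 to 1.36 for htr1b, -0.71 to 0.18 for htr1d, -0.99 to 0.0285 for htr5ab and -0.13 to 1.65 for htr7a. Fraction differences after PBS ran from -0.49 to 0.26 for htr1d, -1.48 to 0.036 for htr2ab and -0.11 to 0.19 for htr2cl1, and after IL4 from -0.77 to 0.035 for htr1d. The causes were not tested.

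Among the lists, calls in GFP-negative cells after IL4 fell to 4 without 1 of 3 libraries for Gi/o coupling (7 reported), to 2 to 4 for Gs coupling (8) and to 1 to 4 for Gq coupling (7; 4 with DESeq2) without 1 GFP-negative library. Depth limits the low receptors: htr1b, htr2ab, htr4 and htr5aa had 3 to 31 counts per GFP-positive group. For htr7a there were 34 counts in IL4 and 15 in PBS GFP-positive cells. With 2 libraries a group each value leans on every library. Where 1 library was left in a group, its spread was taken from the other groups.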
